A study of Mus musculus with 12 samples.

Results

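The genes described here are the Bmal1, Rev-erb and PAR bZIP part of the circadian clock, measured by RNA sequencing in inguinal white adipose tissue (iWAT), the subcutaneous fat depot of the groin. Members were taken by gene name from the table of raw counts: Arntl (Bmal1), Clock, Npas2, Nr1d1 (Rev-erb alpha), Nr1d2 (Rev-erb beta), Rora, Dbp, Tef, Hlf and Nfil3. All 10 were found among the 54134 genes listed, and all 10 were among the 15585 genes that had enough reads to be tested. iWAT came from 12 chow-fed male C57BL/6J mice with 1 library each, of which 6 were AAV-GFP and 6 AAV-Notum. At 8 weeks of age each mouse was given 1e+12 genome copies of an adeno-associated virus by tail vein, carrying either GFP or mouse Notum under the liver-directed TBG promoter. The fat was taken 4 weeks later after a 4 h fast, so that all 12 mice carried a virus and differed in its cargo. NOTUM is a secreted enzyme that removes the lipid group Wnt proteins need for signaling, and here the liver, not the fat, was the tissue driven to make it. The hour of the day at which each mouse was killed is not given in the sources used here.

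The molecular clock is a transcriptional loop that runs in most cells, adipocytes included. BMAL1 pairs with CLOCK or its relative NPAS2 and switches on genes through E-box elements, among them the Rev-erbs, Dbp, Tef and the Per and Cry repressors. REV-ERB alpha and beta are nuclear receptors that repress Arntl through RORE elements, where RORA activates it, so that the Arntl transcript peaks at about the time of day when the Rev-erb transcripts are at their trough. DBP, TEF and HLF are PAR bZIP transcription factors that activate genes through D-box elements, which NFIL3 (E4BP4) binds as a repressor. In many peripheral tissues Dbp, Tef and the Rev-erbs run in one phase and Arntl, Npas2, Clock and Nfil3 in the roughly opposite one, while Rora varies less.

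The promoters of the 10 genes were searched for the elements of the loop, and few were found. RefSeq promoter windows of GRCm38.p6, from 250 bases before to 50 bases after a start site, were at hand for all 10 genes (14 windows), and both strands were searched for the E-box CACGTG, the D-box TTATGTAA or TTACGTAA, and the RORE. The only RORE lay in 1 of the 2 Arntl windows and the only E-boxes in both Tef windows, and these are shown because they are the sites through which Rev-erb and ROR proteins, or BMAL1, are known to act. Each is given 5′ to 3′ on the plus strand, with the motif in capitals.
Arntl RORE, chr7:113207528-113207557: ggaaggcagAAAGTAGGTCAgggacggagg
Tef E-box, chr15:81802537-81802566: ctgtggctcCACGTGctgcagctggcacaa
Tef E-box, chr15:81811267-81811296: ctggcccagCACGTGtctacatcgtttggt
The Arntl RORE began 26 bases after the RefSeq start, in exonic sequence of the GENCODE vM21 annotation. The Tef E-boxes began at -127 and -138 relative to their respective starts, the former in sequence that GENCODE counts as exonic and the latter in an intron. No D-box was found in the windows of the 10 genes. Among all 32851 windows, 7.15% held the E-box, 1.06% the D-box and 0.384% the RORE. By gene, 1 of the 10 held the E-box, 0 the D-box and 1 the RORE, beside 8.09%, 1.23% and 0.459% of 27025 genes. No motif overlapped another, and a window without these letters says nothing of sites elsewhere in the gene.

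Total counts ran from 14711113 to 21618860 reads a mouse, and the RNA integrity number (RIN) from 5.7 to 7.6 for AAV-GFP, and for AAV-Notum from 6.9 to 7.4. The adipocyte markers were strongly present in all mice, with summed levels of 22600 to 38700 CPM (counts scaled to library size) in AAV-GFP mice and 20000 to 46300 CPM in the AAV-Notum group, and none of the 8 was at 0. Lymphoid markers varied far more. Their 15 genes summed to 9.52 to 1780 CPM in AAV-GFP mice and 582 to 2520 CPM in the AAV-Notum group, and AAV-GFP-2014 and AAV-GFP-2011 were the lowest. RNA of AAV-GFP-2012 was isolated on another day than that of the other mice. Notum itself had 0.390 ± 0.399 CPM (SD, n = 6) in AAV-GFP and 9.75 ± 14.15 CPM (SD, n = 6) in AAV-Notum iWAT, with 2 of 6 AAV-Notum mice above all AAV-GFP mice (log2 fold change 4.64, edgeR adjusted p = 0.168).

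The first question was whether these genes differed between AAV-Notum and AAV-GFP mice. Arntl had a positive log2 fold change and the other 9 a negative one, with Tef, Nr1d2 and Rora the furthest down and Npas2, whose sign turned with limma-voom and on the deposited log2 values, close to 0. Individual mice of the groups overlapped for every gene. With edgeR's quasi-likelihood test, 0 of 10 members passed an adjusted p of 0.05 in either direction, where 0.0513% of all 15585 genes tested were called lower and 0% higher. At an unadjusted p under 0.05, 2 members were lower and 0 higher, beside 9.54% of all genes lower and 4.64% higher. The members' median log2 fold change was -0.26 and that of all genes tested 0.01. DESeq2 also called 0 of 10 at an adjusted p of 0.05 (beside 2.17% of 16431 genes lower and 0.481% higher) and had 3 members lower at an unadjusted p, Rora being the third. The share of all genes at an unadjusted p is not given here for DESeq2, so these 3 stand without a background. The 2 members lower at an unadjusted p, Nr1d2 and Tef, both missed it without any 1 of AAV-GFP-2012, AAV-GFP-2014, AAV-Notum-2031, AAV-Notum-2032, AAV-Notum-2033 or AAV-Notum-2034, and Tef alone without AAV-GFP-2011 or AAV-GFP-2021. Arntl was higher at an unadjusted p without AAV-GFP-2022 (log2 fold change 0.55) or AAV-Notum-2042 (0.51). Groups that did not overlap occurred for 0 of 10 members, compared with 0.693% of all genes in the lower and 0.398% in the higher direction.

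**Figure D1:**
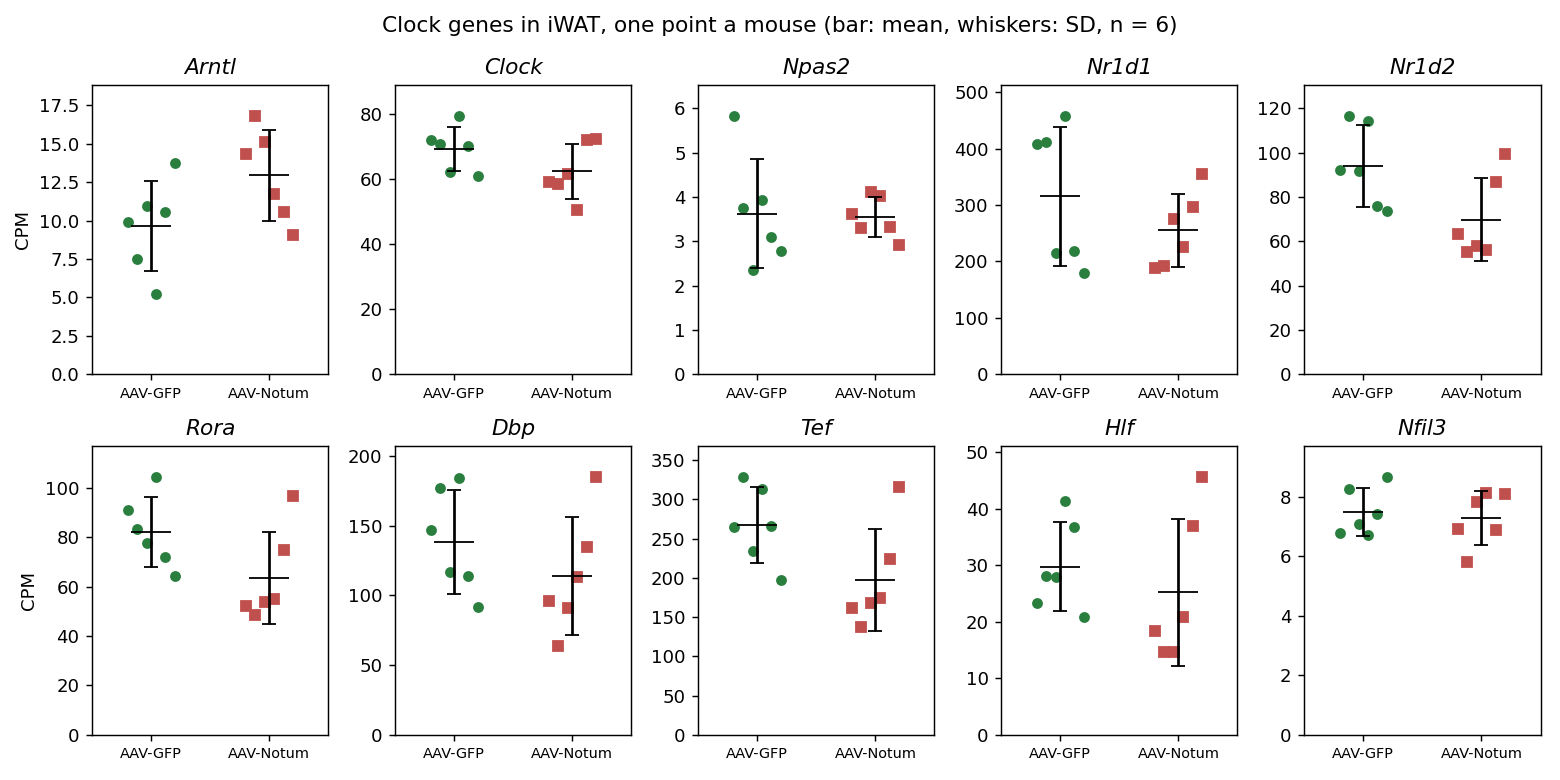
CPM of each of the 10 clock genes (y axis, from 0) in the 6 AAV-GFP (circles) and 6 AAV-Notum (squares) mice, 1 point a mouse in order of mouse number, with mean and SD. Nr1d2, Rora, Tef and Hlf share a picture in which 4 AAV-Notum mice lie below all AAV-GFP mice and the last 2 AAV-Notum mice, AAV-Notum-2041 and AAV-Notum-2042, among or above them.

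Of the activators, Arntl (ENSMUSG00000055116, chr7:113207465-113314126 of GRCm38, plus strand) is known as the single clock gene whose loss alone abolishes the rhythm. It ran from 5.18 CPM through a median of 10.2 to 13.7 CPM in AAV-GFP mice, and from 9.06 through 13.0 to 16.8 CPM in AAV-Notum mice. Mice AAV-Notum-2031, AAV-Notum-2032 and AAV-Notum-2033 lay above all AAV-GFP mice, and the other 3 lay among them. The means were 9.64 ± 2.96 and 12.9 ± 2.96 CPM (SD, n = 6), which is 0.42 as a log2 fold change (SE 0.22, 95% interval -0.06 to 0.91, edgeR adjusted p = 0.397; SE is the standard error of the log2 fold change). The two-sided exact permutation test over all 924 assignments of the mice gave p = 0.0844. Arntl was read from 87 to 321 counts a mouse.

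Clock (ENSMUSG00000029238, chr5:76209868-76304792, minus strand), the partner of BMAL1, was at 61.0 to 79.5 CPM in AAV-GFP mice (median 70.6) and 50.4 to 72.5 CPM in AAV-Notum mice (median 60.3). Of the AAV-Notum mice, 3 were below all AAV-GFP mice. The difference was -0.15 as a log2 fold change (SE 0.10, exact permutation p = 0.136). Npas2 (ENSMUSG00000026077, chr1:39193731-39363236, plus strand), which can stand in for CLOCK, was a low transcript with 40 to 104 counts a mouse. It had 2.34 to 5.83 CPM in AAV-GFP mice (median 3.42) and 2.91 to 4.11 CPM in AAV-Notum mice (median 3.47), and all AAV-Notum values lay within the AAV-GFP range. The Npas2 log2 fold change was -0.03 (95% interval -0.48 to 0.42, exact permutation p = 0.920).

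The Rev-erbs both had lower means in AAV-Notum mice, and only Nr1d2 did so at an unadjusted p under 0.05. Nr1d2 (ENSMUSG00000021775, chr14:18204054-18239127, minus strand) ran from 73.5 through a median of 92.0 to 117 CPM in AAV-GFP mice and from 55.4 through 60.6 to 99.2 CPM in AAV-Notum mice. Mice AAV-Notum-2031, AAV-Notum-2032, AAV-Notum-2033 and AAV-Notum-2034 lay between 55.4 and 63.3 CPM, below all AAV-GFP mice, while AAV-Notum-2041 and AAV-Notum-2042 had 86.9 and 99.2 CPM. The means were 94.0 ± 18.4 and 69.7 ± 18.7 CPM (SD, n = 6), which is -0.43 as a log2 fold change (SE 0.18, edgeR p = 0.0317, adjusted p = 0.312, exact permutation p = 0.0411).

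Nr1d1 (ENSMUSG00000020889, chr11:98767932-98775333, minus strand) split the AAV-GFP mice into high and low ones. Mice AAV-GFP-2011, AAV-GFP-2012 and AAV-GFP-2014 had 409, 412 and 458 CPM, and mice AAV-GFP-2013, AAV-GFP-2021 and AAV-GFP-2022 had 216, 218 and 180 CPM. In the same order, the lymphoid markers summed to 17.2, 326.8 and 9.52 CPM in the high mice and 1592, 1279 and 1777 CPM in the low ones. The part of lymphoid content in this split was not tested. AAV-Notum mice ran from 188 through a median of 250 to 354 CPM, within the AAV-GFP range, and AAV-Notum-2031 and AAV-Notum-2032 lay among the low AAV-GFP mice. The means of 315 ± 124 and 255 ± 65.5 CPM (SD, n = 6) differed by less than 1 SD of either group (log2 fold change -0.31, SE 0.26, exact permutation p = 0.394). Leaving out 1 mouse took the fold change from -0.42 (without AAV-GFP-2022 or AAV-Notum-2042) to -0.17 (without AAV-GFP-2014), and without both AAV-GFP-2014 and AAV-GFP-2011 it was -0.00711.

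Rora (ENSMUSG00000032238, chr9:68653786-69388246, plus strand), the activator at the RORE, followed Nr1d2 more than Nr1d1. It ran from 64.4 through 80.7 to 105 CPM in AAV-GFP mice and from 48.6 through 54.2 to 96.8 CPM in AAV-Notum mice. Again mice AAV-Notum-2031, AAV-Notum-2032, AAV-Notum-2033 and AAV-Notum-2034 lay below all AAV-GFP mice. The log2 fold change was -0.37 (SE 0.18, 95% interval -0.76 to 0.02, edgeR adjusted p = 0.365, exact permutation p = 0.0649).

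The PAR bZIP factors had lower means in AAV-Notum mice to differing extents. Tef (ENSMUSG00000022389, chr15:81802421-81826863, plus strand) ran from 197 through 266 to 329 CPM in AAV-GFP mice and from 137 through 172 to 316 CPM in AAV-Notum mice. The same 4 AAV-Notum mice were below all AAV-GFP mice, and mouse AAV-Notum-2042 was with the highest AAV-GFP mice. Means were 268 ± 48.9 and 197 ± 64.9 CPM (SD, n = 6). The log2 fold change was -0.44 (SE 0.20, edgeR p = 0.0450 and adjusted p = 0.340, against an exact permutation p of 0.0519), so that the unadjusted call of Tef rested on the test used.

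Dbp (ENSMUSG00000059824, chr7:45705088-45710203, plus strand) had 91.9 to 184 CPM in AAV-GFP mice (median 132) and 63.9 to 185 CPM in AAV-Notum mice (median 105). AAV-Notum mice held both its lowest level, in AAV-Notum-2032, and its highest, in AAV-Notum-2042. The Dbp log2 fold change was -0.28 (SE 0.25, 95% interval -0.82 to 0.26, exact permutation p = 0.264), or -0.47 without AAV-Notum-2042 and -0.16 without AAV-Notum-2032. Hlf (ENSMUSG00000003949, chr11:90336536-90390895, minus strand) had 20.9 to 41.4 CPM in AAV-GFP mice (median 28.0) and 14.7 to 45.6 CPM in AAV-Notum mice (median 19.6). Here 4 AAV-Notum mice were below all AAV-GFP mice and 1, mouse AAV-Notum-2042, above them all. The Hlf log2 fold change was -0.24 (SE 0.30, exact permutation p = 0.312). It was -0.50 without AAV-Notum-2042 and -0.12 without any 1 of AAV-GFP-2014, AAV-Notum-2032 or AAV-Notum-2033.

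Nfil3 (ENSMUSG00000056749, chr13:52967209-52981073, minus strand), the D-box repressor, had nearly equal means in both groups. It had 6.73 to 8.68 CPM in AAV-GFP mice (median 7.25) and 5.81 to 8.15 CPM in AAV-Notum mice (median 7.37). The log2 fold change was -0.04 (SE 0.12, 95% interval -0.29 to 0.21, exact permutation p = 0.662).

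**Figure D2:**
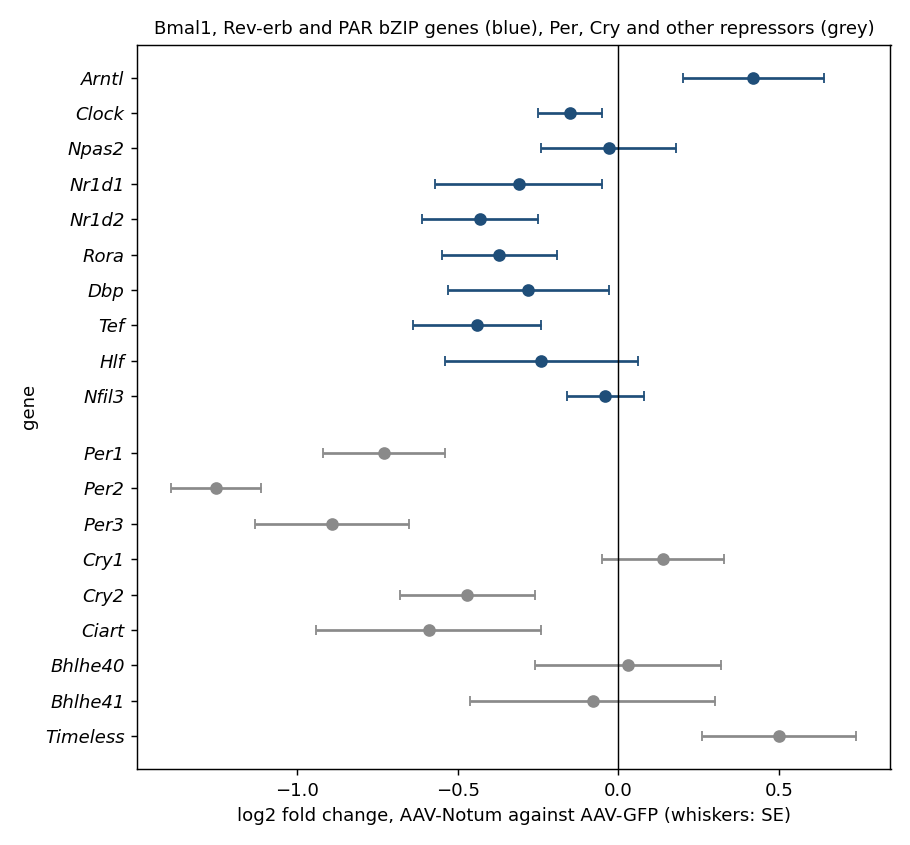
Log2 fold change (x axis, AAV-Notum against AAV-GFP; whiskers, SE) of the 10 genes in blue and of 9 genes of the Per, Cry and repressor list in grey. Arntl, at 0.42, is the only blue point above 0, and Per2, at -1.25, lies furthest from 0.

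The second question was whether the opposite phases of the loop could be seen across the 12 mice. Arntl had a negative correlation with Nr1d1, Nr1d2, Dbp, Tef and Hlf in both groups, and those 5 genes varied together from mouse to mouse. Clock, Npas2 and Nfil3 did not follow Arntl before any adjustment for marker levels. Mouse AAV-GFP-2014 had the lowest Arntl of all 12 and the highest Nr1d1 and Rora, and mouse AAV-Notum-2032 had the highest Arntl and the lowest Nr1d2, Rora, Dbp, Tef and Hlf. Correlations were computed on log2 CPM for all 45 pairs of the 10 genes, with permutation tests over 100000 resamples and Benjamini-Hochberg adjustment over the 45. After adjustment 27 of the 45 pairs had p under 0.05, which were the 27 with r of at least 0.72 in size. Correlations of this size were common in these libraries, since 20.0% of the 121438320 pairs among all genes tested reached it.

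Arntl against Dbp had Pearson's r = -0.90 (permutation p = 0.00011, adjusted p = 0.000619) and Spearman's rho = -0.95 (permutation p = 2e-05). Without the 2 mice farthest from the median of Arntl, AAV-GFP-2014 and AAV-Notum-2032, r was -0.94. Within the AAV-GFP mice r was -0.92 (exact permutation p = 0.00278, n = 6), and within the AAV-Notum mice -0.98 (exact permutation p = 0.00139, n = 6). The relation was therefore present in each group and did not rest on the difference between them.

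Tef and Nr1d2 were close to Dbp in this respect. Arntl against Tef had r = -0.88 (permutation p = 0.0001, adjusted p = 0.000619) and rho = -0.95 (permutation p = 4e-05), -0.92 without the 2 mice, -0.87 within AAV-GFP (exact permutation p = 0.0250) and -0.94 within AAV-Notum mice (exact permutation p = 0.00278). Arntl against Nr1d2 had r = -0.87 (permutation p = 9e-05, adjusted p = 0.000619) and rho = -0.92 (permutation p = 0.0001), -0.86 without the 2 mice, -0.87 within AAV-GFP (exact permutation p = 0.0208) and -0.85 within AAV-Notum mice (exact permutation p = 0.0278). Rora, although it acts on Arntl as an activator, showed the same sign, with r = -0.88 (permutation p = 8e-05, adjusted p = 0.000619), rho = -0.94 (permutation p = 3e-05), and -0.83 without the 2 mice.

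Nr1d1 and Hlf were related to Arntl somewhat less closely. Arntl against Nr1d1 had r = -0.82 (permutation p = 0.00053, adjusted p = 0.00217) and rho = -0.80 (permutation p = 0.00239), and -0.73 without the 2 mice. Within AAV-GFP mice r was -0.84 (exact permutation p = 0.00694), and within AAV-Notum mice -0.78 (exact permutation p = 0.0833). Arntl against Hlf had r = -0.78 (permutation p = 0.00182, adjusted p = 0.00431) and rho = -0.87 (permutation p = 0.0004), and -0.71 without the 2 mice. For Hlf the AAV-Notum mice gave -0.96 (exact permutation p = 0.00139) and the AAV-GFP mice -0.71 (exact permutation p = 0.113).

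**Figure D3:**
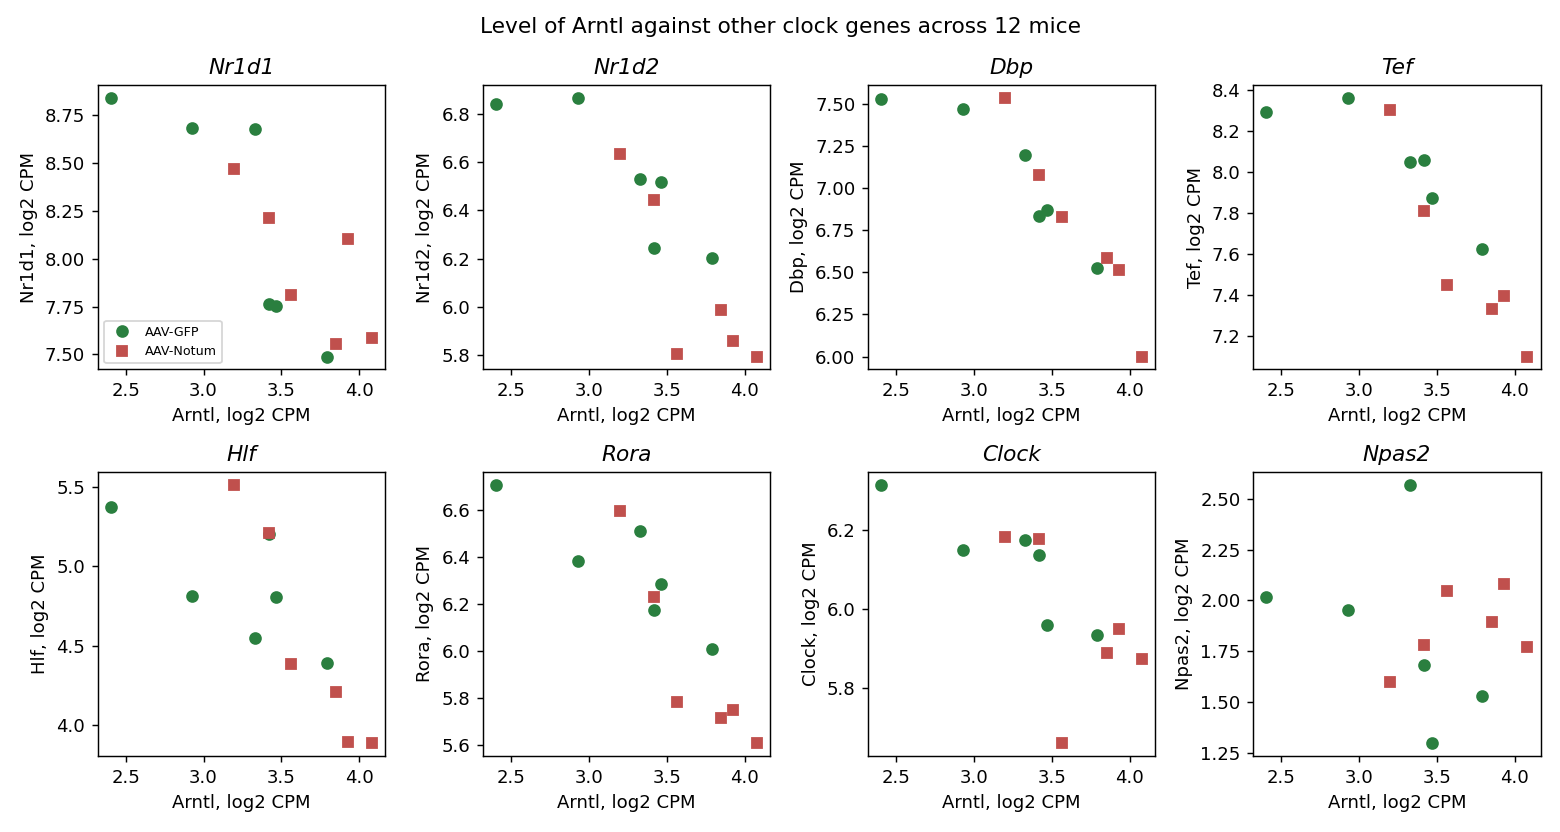
Log2 CPM of Arntl (x axis) against that of 8 other clock genes (y axes), 1 point a mouse, AAV-GFP as circles and AAV-Notum as squares. Points descend from left to right for Nr1d1, Nr1d2, Dbp, Tef, Hlf, Rora and Clock, with r from -0.74 (Clock) to -0.90 (Dbp), and scatter without direction for Npas2 (r = -0.16).

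On the other side of the loop, all 10 pairs among Nr1d1, Nr1d2, Dbp, Tef and Hlf were positive, with r from 0.53 to 0.93 and a median of 0.83, and 9 of them had an adjusted p under 0.05. All 10 were positive within each group as well. Nr1d2 with Tef (r = 0.93) and Dbp with Tef (r = 0.92) were the closest, and Nr1d1 with Hlf (r = 0.53, adjusted permutation p = 0.125) the loosest.

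Before any adjustment for marker levels, Clock, Npas2 and Nfil3 did not behave as the textbook grouping places them. Clock had r = -0.74 with Arntl (permutation p = 0.00536, adjusted p = 0.0105; rho = -0.84, permutation p = 0.00108), and -0.62 without the 2 mice (permutation p = 0.0566). Within AAV-GFP mice r was -0.88 (exact permutation p = 0.0236), and within AAV-Notum mice -0.53 (exact permutation p = 0.279). Clock was positive with Nr1d1 (0.76), Nr1d2 (0.84), Dbp (0.72), Tef (0.81) and Hlf (0.74). Npas2 and Nfil3 had r of -0.16 and -0.10 with Arntl, with adjusted permutation p of 0.803 and 0.831. Of the 20 pairs between Arntl, Clock, Npas2 or Nfil3 and the Rev-erb and PAR bZIP genes, 7 were negative and 13 positive, with a median r of 0.13. The 5 pairs with Arntl were all negative, with a median of -0.87.

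**Figure D4:**
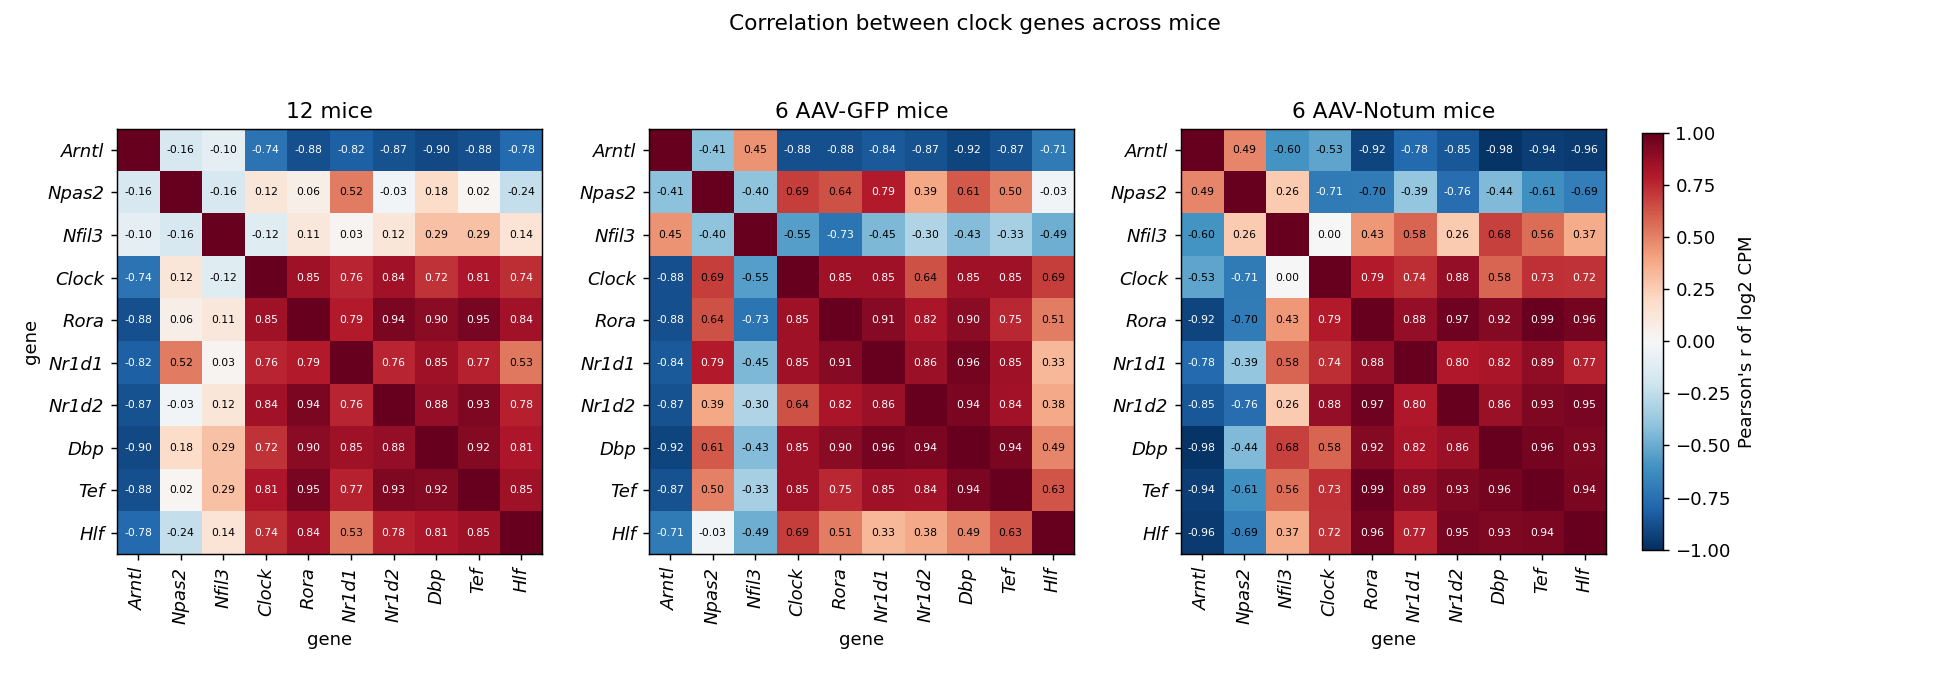
Pearson's r between log2 CPM of the 10 clock genes (both axes) over all 12 mice and within each group of 6, from -1 (blue) to 1 (red). In all 3 panels the block of Clock, Rora, Nr1d1, Nr1d2, Dbp, Tef and Hlf is red and Arntl is blue against it, while most signs of Npas2 and Nfil3 differ between the groups.

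Ranked against the whole transcriptome, Dbp was the 4th most negative partner of Arntl among 15584 other genes tested. Of the Per, Cry and Ciart repressors outside the set, Per3 ranked 8, Cry2 16 and Ciart 32, while Per1 (r = -0.75) ranked 1394, Per2 (-0.72) 1785 and Cry1, with a positive r of 0.41, 10231. Of the set, Tef ranked 40, Rora 42 and Nr1d2 59. Nr1d1 and Hlf ranked 414 and 812. Seen from Nr1d1, the other members stood far lower in the order: Arntl was its 2981st most negative partner, while Dbp ranked 1212, Rora 2111, Tef 2594, Nr1d2 2667 and Hlf 5264 from the most positive. These ranks are a description across genes, which share the libraries and their composition. The most negative genes outside the set were Yes1 (r = -0.92), Zfp219 (-0.91), Rita1, Rheb and Hecw2 (-0.90 each), and the most positive were Zfp90 (0.96), Smarcd1 (0.95), H2-T-ps, Oas1c and Tns4 (0.94 each). For Nr1d1 the most positive named here were Jag1, Aldh2 and Clpb (0.97 each) and Pccb (0.96), and the most negative Ncdn (-0.98), Rara, Sdad1, Cdh24 and Mcl1 (-0.97 each). Each value is over 12 mice.

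The relative level of both arms of the loop can be put in 1 number a mouse, the log2 ratio of Arntl to Nr1d1 reads. It ran from -6.47 through a median of -4.86 to -3.71 in AAV-GFP mice and from -5.29 through -4.22 to -3.51 in AAV-Notum mice. For Arntl to Dbp it ran from -5.15 through -3.66 to -2.74 and from -4.35 through -3.01 to -1.93. The groups overlapped over most of their ranges in both ratios. On the reads behind the second deposited table, described with the shared exons of Dbp, the Arntl to Dbp ratio was higher in both groups, from -4.37 through -2.91 to -1.92 in AAV-GFP and from -3.56 through -2.19 to -1.21 in AAV-Notum mice, and the overlap remained.

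Cell type markers moved with these genes from mouse to mouse. Over the 12 mice the mean log2 level of the 8 adipocyte markers had r = 0.92 with Nr1d1, 0.82 with Dbp, 0.80 with Tef, 0.79 with both Rora and Clock, 0.68 with Nr1d2, 0.63 with Hlf and -0.78 with Arntl. That of the 15 lymphoid markers had the reverse sign for all 8 genes, from -0.85 (Nr1d1) to -0.40 (Hlf) for those above and 0.78 for Arntl. Adipocyte scores spanned 10.04 to 11.3 in the AAV-GFP group, against 10.1 to 11.1 in the AAV-Notum group, and lymphoid scores -0.636 to 6.74 against 5.08 to 7.14. Endothelial markers (6 genes) had r = 0.91 with Nr1d1 and -0.75 with Arntl, and progenitor markers (6 genes) -0.71 and 0.72. Skeletal muscle markers had r = 0.72 with Nr1d1, 0.68 with Dbp, 0.64 with Tef and -0.43 with Arntl. Their 8 genes summed to 9.11 to 896 CPM in the AAV-GFP group and 8.01 to 4183 CPM in the AAV-Notum group, where AAV-Notum-2042, the mouse highest in Dbp and Hlf, was the highest. Hepatocyte markers (8 genes, summing to 2110 to 8000 CPM against 1600 to 6960 CPM) were at a median of -2.79 as log2 fold changes, 3 of them lower at an unadjusted p under 0.05, and had r of -0.05 with Nr1d1 and -0.27 with Arntl. All but Cyp2e1 (0.22) had a negative log2 fold change. Up to 2 of the 8 were at 0 in a mouse of either group. AAV-Notum-2031 summed to 1595 CPM at a mean log2 level of 0.823, so that few of the 8 genes made up its sum. Macrophage markers (8 genes, none at 0, summing to 454 to 1430 CPM against 851 to 1650 CPM) had r of 0.53 with Arntl, -0.54 with Hlf and -0.44 with Nr1d1, the last being -0.83 within AAV-Notum mice, and 2 of them, Cd163 and Mrc1, were lower at an unadjusted p under 0.05. In bulk tissue, fewer cells of a type and less RNA per cell cannot be told apart, and the part of the endothelial, progenitor, muscle, hepatocyte and macrophage markers in these results was not tested.

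**Figure D5:**
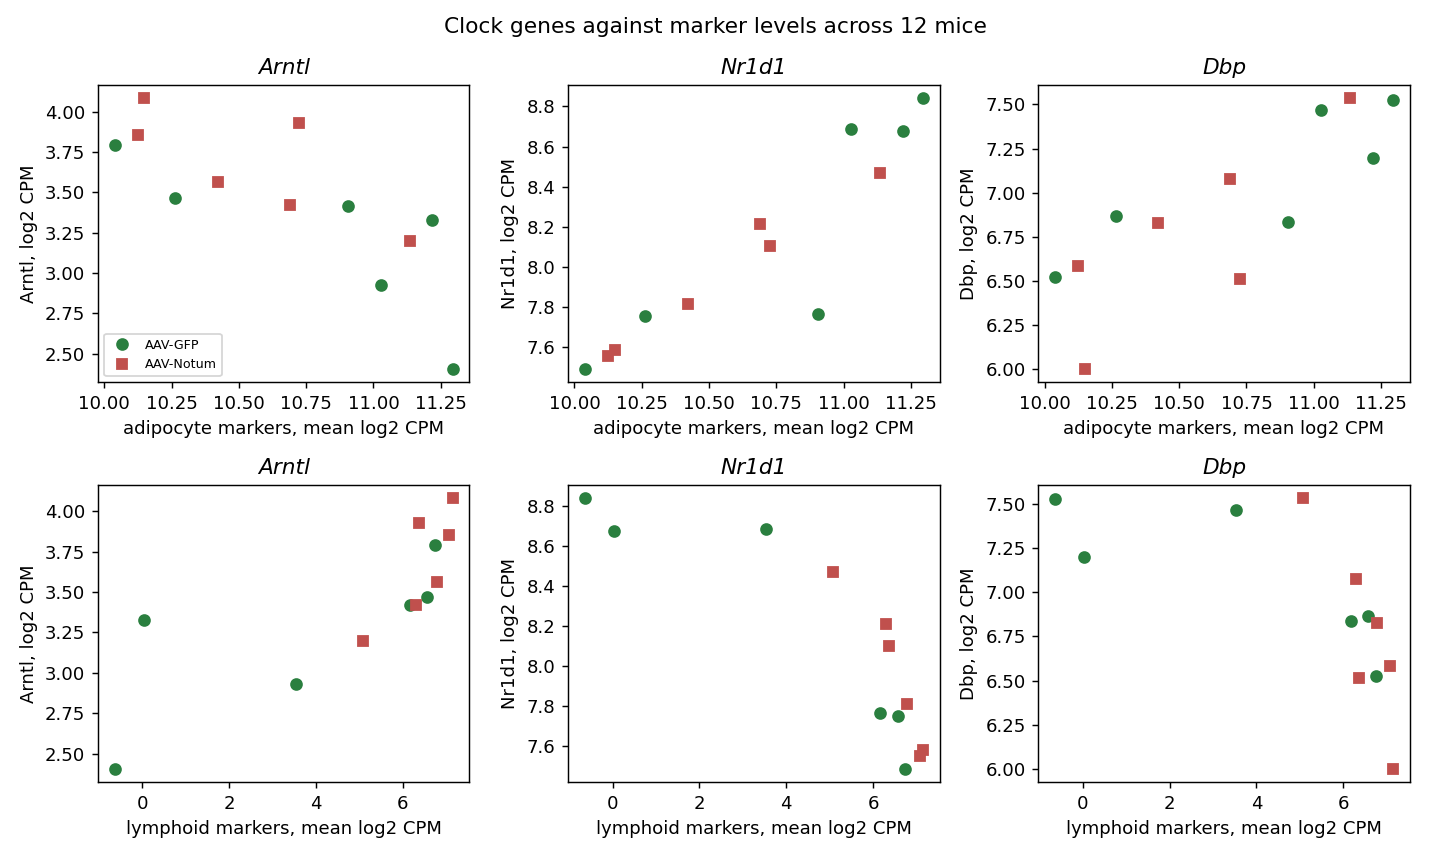
Log2 CPM of Arntl, Nr1d1 and Dbp (y axes) against the mean log2 CPM of 8 adipocyte (upper row) and 15 lymphoid markers (lower row), 1 point a mouse. Nr1d1 climbs with the adipocyte markers (r = 0.92) and Arntl descends (r = -0.78), and AAV-GFP-2014 and AAV-GFP-2011 stand apart at the left of the lower row.

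Taking residuals from a straight line on the lymphoid score, a step chosen after the data were seen, left Arntl at r = -0.81 with Dbp (permutation p = 0.00105), -0.74 with Nr1d2, -0.77 with Tef, -0.82 with Hlf and -0.45 with Nr1d1 (permutation p = 0.139). On the adipocyte score the corresponding values were -0.74 (permutation p = 0.00529), -0.74, -0.68, -0.60 and -0.41 (permutation p = 0.190). The r of Arntl with Clock went from -0.74 to -0.43 on the lymphoid and -0.32 on the adipocyte score. With Npas2 it turned from -0.16 to 0.62 and 0.39, and with Nfil3 it went from -0.10 to -0.36 and -0.09. The permutation p of Arntl with Dbp was under 0.05 beside either score taken alone, and that with Nr1d1 was not. The scores were taken singly, and the part of cell composition in these correlations was not tested. In the group comparison, the lymphoid score as a covariate brought Arntl to a log2 fold change of 0.14, Nr1d2 to -0.23 and Tef to -0.24, and turned Nr1d1 to 0.24 and Dbp to 0.06. With it, or without AAV-GFP-2014 and AAV-GFP-2011, or with RIN as a covariate, 0 members were lower at an unadjusted p under 0.05. Nr1d2 and Tef were at -0.36 and -0.39 without those 2 mice, and both at -0.39 with RIN. In the same order, Nr1d1 went to -0.00711 and -0.15, Dbp to -0.13 and -0.18, Rora to -0.23 and -0.28, and Arntl to 0.28 and 0.36. With the adipocyte score as a covariate, 3 members (Nr1d2 at -0.32, Rora at -0.25 and Tef at -0.31) were lower at an unadjusted p under 0.05, while Nr1d1 went to -0.02, Dbp to -0.10, Hlf to -0.11 and Arntl to 0.27. In that fit 156 of all genes were lower and 31 higher at an adjusted p under 0.05, and 0 members passed. Its share of all genes at an unadjusted p is not given here, so the 3 stand without a background.

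The genes differed in how widely they varied among mice of the same group. Hlf had the widest pooled within-group SD, 0.555 on the log2 CPM scale, at the 80.2 percentile of all genes tested. Nr1d1 (0.494), Dbp (0.464) and Arntl (0.418) came next, at percentiles 75.8, 73.0 and 68.0. Tef (0.359), Npas2 (0.341), Nr1d2 (0.324) and Rora (0.324) were near the middle, and Clock (0.174) and Nfil3 (0.169) were among the steadier genes, at percentiles 22.5 and 21.3.

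Levels are comparable between genes only per length. In CPM per kilobase of exon, averaged over the 12 mice, Nr1d1 was highest at 92.7, followed by Dbp (42.2), Tef (29.5) and Nr1d2 (15.1). Rora (5.58), Clock (4.80), Hlf (4.11) and Nfil3 (3.65) formed a lower tier with overlapping ranges. Arntl (1.5, from 0.689 to 2.23) and Npas2 (0.748, from 0.489 to 1.22) were lowest, and their ranges overlapped too. The order of Dbp and Tef depended on the table of reads. Dbp was above Tef per kilobase in 12 of 12 mice in the raw counts (median ratio 1.44) and below it in 12 of 12 on the reads behind the second deposited table (median ratio 0.836).

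Exons of Nr1d1 and Dbp are shared in part with other tested genes on the opposite strand, and whether the reads were counted by strand is not stated. Nr1d1 shares 263 exonic bases, 8.55% of its length, with Thra, the thyroid hormone receptor alpha gene. Thra had r = 0.86 with Nr1d1 over the 12 mice and a log2 fold change of -0.23 (SE 0.20). Dbp shares 539 bases, 18.0%, with Sphk2, a sphingosine kinase gene, which had r = -0.66 with Dbp and a log2 fold change of 0.23 (SE 0.09). A second deposited table rests on another count of the reads, with 41.6% fewer on Dbp and 11.6% fewer on Nr1d1. From those reads the log2 fold changes were -0.36 for Dbp and -0.29 for Nr1d1, and r with Arntl was -0.95 for Dbp and -0.82 for Nr1d1.

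Of 37 other genes tied to the clock, in the lists of repressors, paralogs, clock protein modifiers and output genes, 35 were tested (Rorb and Lonrf3 were not). At an unadjusted p under 0.05, 9 were lower and 1 higher in AAV-Notum mice, where 9.54% of all genes tested were lower and 4.64% higher, and Per2 was lower at an adjusted p under 0.05 with edgeR. The median log2 fold change was -0.13. Among the repressors, Per2 fell from 45.9 ± 8.40 to 19.2 ± 2.91 CPM (SD, n = 6), with no overlap between the groups (log2 fold change -1.25, SE 0.14, edgeR adjusted p = 0.00917, exact permutation p = 0.00216, the smallest that 6 against 6 allow). Per1 (-0.73, adjusted p = 0.149), Per3 (-0.89, adjusted p = 0.160) and Cry2 (-0.47, adjusted p = 0.343) were lower at an unadjusted p from edgeR. Cry1 (0.14) and Ciart (-0.59) were not. DESeq2 gave Per1 and Per3 adjusted p of 0.0217 and 0.0222. With the lymphoid score as a covariate Per2 was still at -1.12 (edgeR adjusted p = 0.0205), and it stayed under 0.05 without any 1 mouse (highest edgeR adjusted p = 0.0474). Whether Per2 differed more than the Rev-erbs or PAR bZIP genes was not tested.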

How the data were processed

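RNA from iWAT of 12 mice was made into TruSeq libraries and sequenced as single-end reads. The authors mapped these to mm10 with STAR 2.3.1, per the labels, and the deposited raw counts give whole reads per gene. The program that counted them and its strand setting are not given in the sources used here. A second table deposited by the authors holds log2 values (log2 of reads over a size factor, plus 1). Inverting the transform yielded whole reads in 100% of values (tolerance 0.02), and 6725 of 31137 shared genes had the same reads in both tables. The raw counts were used, and the second table as an alternative.

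Counts were fitted in R 4.3.3 with edgeR 4.0.16 (filterByExpr with minimum count 10 and minimum total 15, TMM, glmQLFit, two-sided quasi-likelihood test, Benjamini-Hochberg over 15585 genes, threshold 0.05). CPM are on the TMM scale, and a prior count of 2 was added for log2 CPM. Correlations and permutation tests used numpy 2.4.6, with ranks from scipy 1.17.1, and figures matplotlib 3.10.9. Each mouse is 1 library, so p-values of the group comparison set the difference against the spread between mice. That spread holds biological and technical variation together. On simulated counts of the same 15585 genes, 55% of 200 genes changed by a log2 fold change of 1 were recovered and 3.51% of calls were false. Total counts were 14711113 to 21618860, so Arntl, Npas2 and Nfil3, with the fewest counts, carry more counting error than the others.

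Members and lists were chosen with earlier results of these data known. Named genes were all members; Per1, Per2, Per3, Cry1, Cry2, Ciart and up to 3 other clock genes of smallest p; the 5 highest and 5 lowest correlated with Arntl and with Nr1d1; Thra and Notum. Sphk2, and Rorb and Lonrf3 as genes not tested, were added with their values known. DESeq2 1.42.0, limma-voom (limma 3.58.1), RLE size factors, other filters on low counts, a robust fit, covariates, the second table and leaving out mice served as alternatives. Protein sequences were not used here. Some genes that these rules select are not reported here.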

Additional observations from a re-analysis of the deposited data

How the results depend on the processing

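No paired analysis was possible because mouse numbers are not shared between the groups. The log2 fold changes of Arntl, Clock, Nr1d2, Rora, Tef and Hlf kept their sign under every alternative run, and 0 members passed an adjusted p of 0.05 under any, with adjusted p of 0.124 to 0.783 for Tef and 0.141 to 0.764 for Nr1d2. The value of Nr1d1 turned to 0.24 and that of Dbp to 0.06 with the lymphoid score as a covariate. Npas2 turned to 0.02 with limma-voom, 0.15 with RIN as a covariate, 0.32 with the lymphoid and 0.12 with the adipocyte score, 0.01 on the deposited log2 values, and 0.25 without AAV-GFP-2014 and AAV-GFP-2011. Leaving out 1 mouse, Npas2 ran from -0.13 to 0.16 and Nfil3 from -0.08 to 0.01: Npas2 became 0.16 (without AAV-GFP-2011) and 0.02 (without AAV-Notum-2042), and Nfil3 0.00392 (without AAV-GFP-2022) and 0.01 (without AAV-Notum-2032). Members lower at an unadjusted p numbered 0 with RIN or the lymphoid score as a covariate and without AAV-GFP-2014 and AAV-GFP-2011. Leaving out 1 mouse at a time, they numbered 0 to 3 lower (0 without AAV-GFP-2012 or AAV-GFP-2014, or AAV-Notum-2031, AAV-Notum-2032, AAV-Notum-2033 or AAV-Notum-2034) and 0 to 1 higher. The r of Arntl with Nr1d1 was -0.87 to -0.76 and with Dbp -0.95 to -0.89 on leaving out 1 mouse. After the lymphoid and the adipocyte score r with Nr1d1 was -0.45 and -0.41. The median r of the 20 pairs ran from -0.12 (without AAV-Notum-2032, the only change of sign) to 0.23 on leaving out 1 mouse, and from 0.03 to 0.26 under the other alternatives. Other clock genes higher at an unadjusted p numbered 2 with DESeq2, limma-voom, the filter of at least 1 count, the adipocyte score and the deposited log2 values, 0 with the lymphoid score and without AAV-GFP-2014 and AAV-GFP-2011, and 1 to 2 on leaving out 1 mouse, where 7 to 12 were lower. Over all genes, those lower and higher at an adjusted p under 0.05 were 357 and 79 with DESeq2, 13 and 1 with RLE size factors, 14 and 1 with at least 10 counts in every mouse, and 156 and 31 with the adipocyte score. Those lower were 5 with at least 1 count, 4 with the lymphoid score, 4 on the deposited log2 values and 1 without AAV-GFP-2014 and AAV-GFP-2011, and 1 was higher on the recovered reads. On leaving out 1 mouse they ran from 1 (without AAV-Notum-2033) to 146 lower (without AAV-GFP-2022) and from 0 to 12 higher. The cause of these changes was not tested. The adipocyte score, the residuals and the recovered reads were chosen after the data were seen. Npas2, Arntl and Nfil3, with the fewest counts, are limited most by depth.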

Other observations

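Outside the core loop, the 13 genes for clock protein modifiers and corepressors were centred on a median of -0.05 (log2 fold change), with 1 lower and 1 higher at an unadjusted p under 0.05 (beside 9.54% and 4.64% of all genes tested) and 0 at an adjusted p with edgeR. Of 11 clock output genes tested, 4 were lower at an unadjusted p under 0.05, where 9.54% of all genes tested were, and the median log2 fold change was -0.35. Tspan4 (log2 fold change -0.65, edgeR adjusted p = 0.152) and Hspa8, a heat shock cognate protein gene (-0.35, edgeR adjusted p = 0.179), were among these 4.

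The 10 genes induced by glucocorticoids, a hormone that is itself rhythmic, all had lower means in AAV-Notum mice (median -0.52 as a log2 fold change). At an unadjusted p under 0.05, 4 were lower (beside 9.54% of all genes tested), and 0 passed an adjusted p with edgeR.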
